A study of Homo sapiens with 6 samples.

Results

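The genes described here code for 53 proteins of the integrin adhesion, in 3 siCEP20 and 3 siCTR samples of A549 cells. They were chosen by symbol, as integrin subunits, the talin, kindlin and ILK core, the proteins that link integrins to actin, and the signalling proteins that dock there, and all 53 matched 1 gene each among the 60624 genes of the expression table. Of these, 49 had a mean of at least 1 TPM (a transcript abundance per length, scaled to the same sum in every sample) and were tested with 14778 genes in all. Integrins are heterodimers of an alpha and a beta subunit that bind the extracellular matrix outside the cell. Talins and kindlins bind the beta tail and activate the receptor, vinculin, alpha-actinins, filamins and tensins join it to actin filaments, and focal adhesion kinase, SRC, paxillin and their scaffolds signal from it. Epithelial and lung carcinoma cells attach, spread and migrate on laminins, collagens and fibronectin through such adhesions.

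The study asked which transcripts change in non-small cell lung cancer cells when CEP20, a protein of centrosomes and centriolar satellites, is depleted. A549 is an established human lung adenocarcinoma line, and all 6 samples were A549 cells. The siCEP20 samples are labelled as CEP20 knockdown and were transfected with siCEP20 for 3 days. The siCTR samples were transfected for the same time with the control siCTR. The sources used here do not give which CEP20 siRNA was sequenced, and although the methods describe experiments in general as independent repeats, neither they nor the labels say so of the sequenced samples, so p-values measure only the spread between these samples, which may be technical. In bulk RNA, fewer cells with a transcript and less of it per cell cannot be told apart.

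CEP20 was measured at 29.2, 30.5 and 35.1 TPM in siCTR and 16.2, 15.3 and 17.3 TPM in siCEP20, so its mean in siCEP20 was 51.4% of that in siCTR, with no overlap (log2 fold change -0.92 ± 0.09, adjusted p = 0.000205, limma). Keratin transcripts of epithelial cells were high, with KRT7, KRT8 and KRT18 at no less than 1535 TPM in any sample, whereas the epithelial adhesion genes CDH1 and EPCAM were low, at 11.1 to 12.4 TPM in siCTR and 21.9 to 24.1 TPM in siCEP20 for CDH1 and 0.834 to 1.24 TPM in siCTR and 3.01 to 3.85 TPM in siCEP20 for EPCAM. All 6 epithelial markers were higher at an adjusted p under 0.05, 3 of them also under median-of-ratios scaling, and their summed level was 7029 to 7333 TPM in siCTR and 8474 to 8709 TPM in siCEP20, whose part in the results was not tested. Summed over 4 endothelial markers, no sample exceeded 0.125 TPM. Of 4 haematopoietic markers only CD14 passed a mean of 1 TPM, at 7.34 to 10.9 TPM in siCTR and 7.20 to 8.84 TPM in siCEP20, and of 4 fibroblast markers only COL1A1 did. All tested genes together had a median log2 fold change of 0.13 in TPM, and the changes are to be read against that shift.

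More of these genes were higher than lower in siCEP20. Of the 49 tested genes, 31 (63.3%) were higher at an adjusted p under 0.05, against 30.2% of all tested genes, and 4 (8.16%) were lower, against 13.2%. With a fold change over 1.5 or under 0.67 required as well, 9 (18.4%) were called higher and 1 (2.04%) lower, against 11.2% and 4.61% of all tested genes. The 9 called higher were LIMS2, TNS1, TNS3, TNS4, LPP, PDLIM5, ENAH, NEDD9 and CAV1, and the single gene called lower was VCL. The siCEP20 samples lay wholly above the siCTR samples for 35 of the 49 (71.4%), against 38.4% of all tested genes, and wholly below for 6 (12.2%), against 17.0%. The median log2 fold change of the 49 was 0.31, and their SE-based intervals and calls are drawn in the plot of fold changes by role. Scaling bore on the split: with median-of-ratios scaling, under which the median of all tested genes was 0.00 and 44.7% of all calls were higher instead of 70.9%, 19 of the 49 were higher and 8 lower at the same adjusted p, against 20.1% and 21.6% of all tested genes. Under that scaling 8 of the 49 were called higher and 1 lower, against 6.04% and 7.47% of all tested genes.

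**Figure D1:**
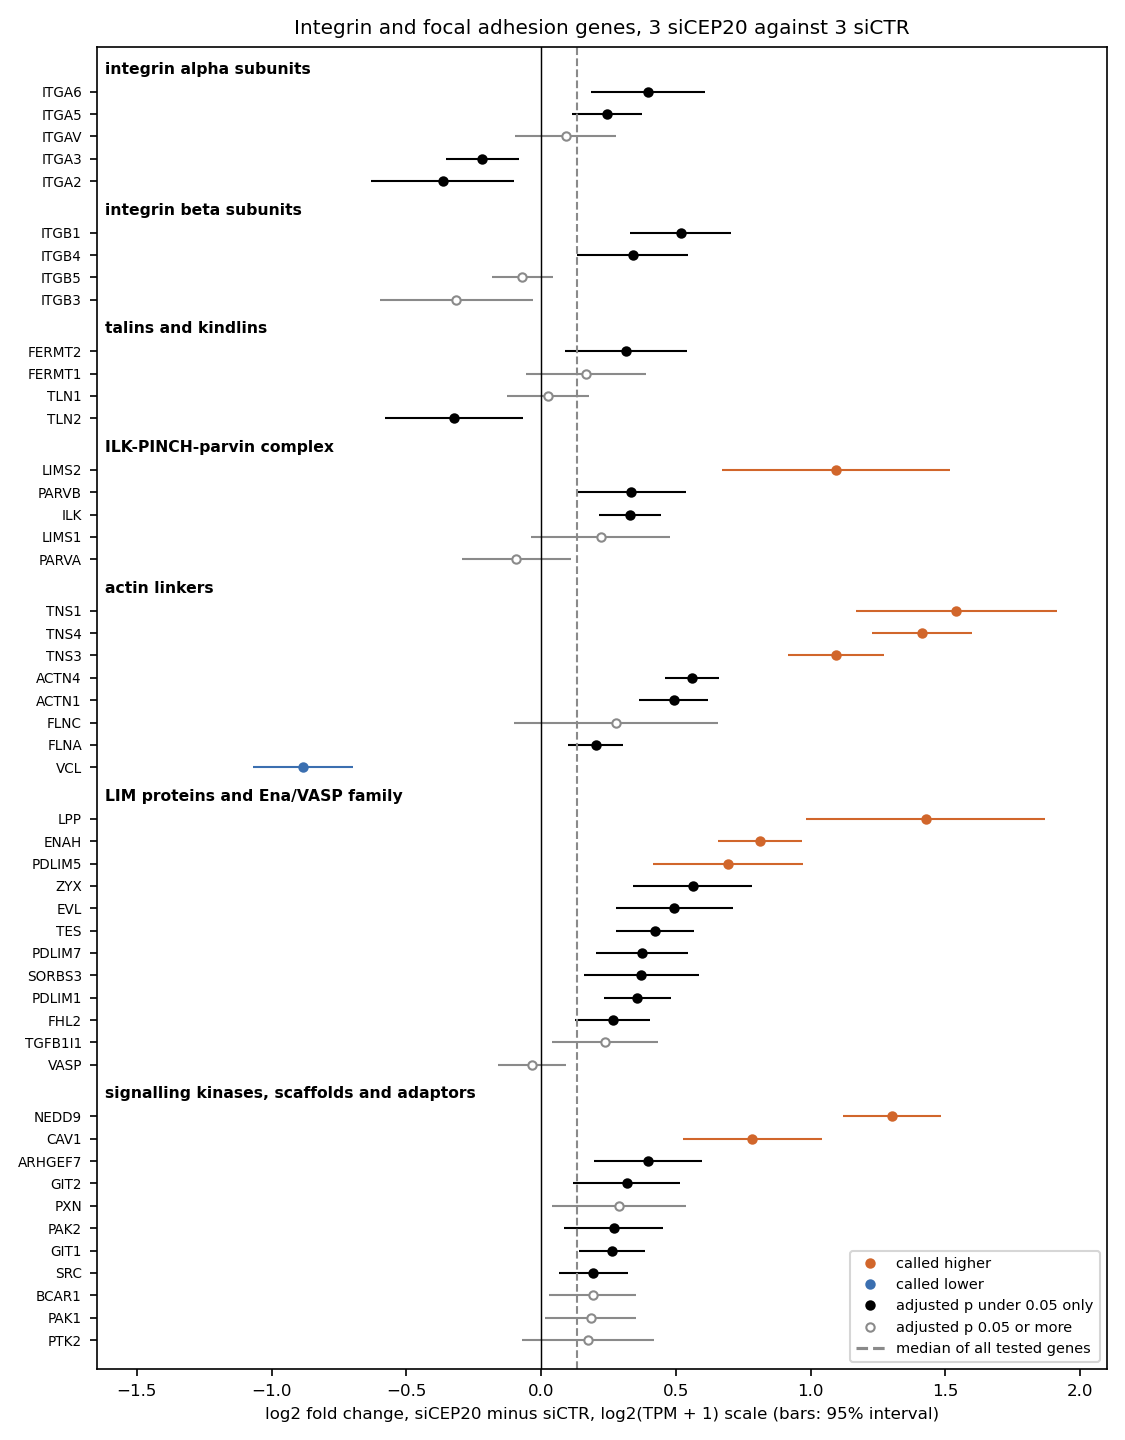
Log2 fold change (siCEP20 minus siCTR, on the log2(TPM + 1) scale) of the 49 tested genes by role, with 95% intervals from limma, where the dashed line is the median of all 14778 tested genes, 0.13. The 3 tensins, LPP, NEDD9 and LIMS2 lie above 1, VCL alone lies below -0.5, and the integrin subunits and talins lie on both sides of 0.

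Summed over the 53 genes, the transcripts made up 0.64%, 0.69% and 0.70% of all TPM in siCTR and 0.86%, 0.90% and 0.88% in siCEP20. The groups did not overlap, and the first siCTR sample was the lowest. The longest annotated transcript of each of these genes was taken, which need not be the one expressed. Its median length was 5441 bases, against 3392 bases over all tested genes, and its median GC content 53.2% against 48.5%.

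**Figure D2:**
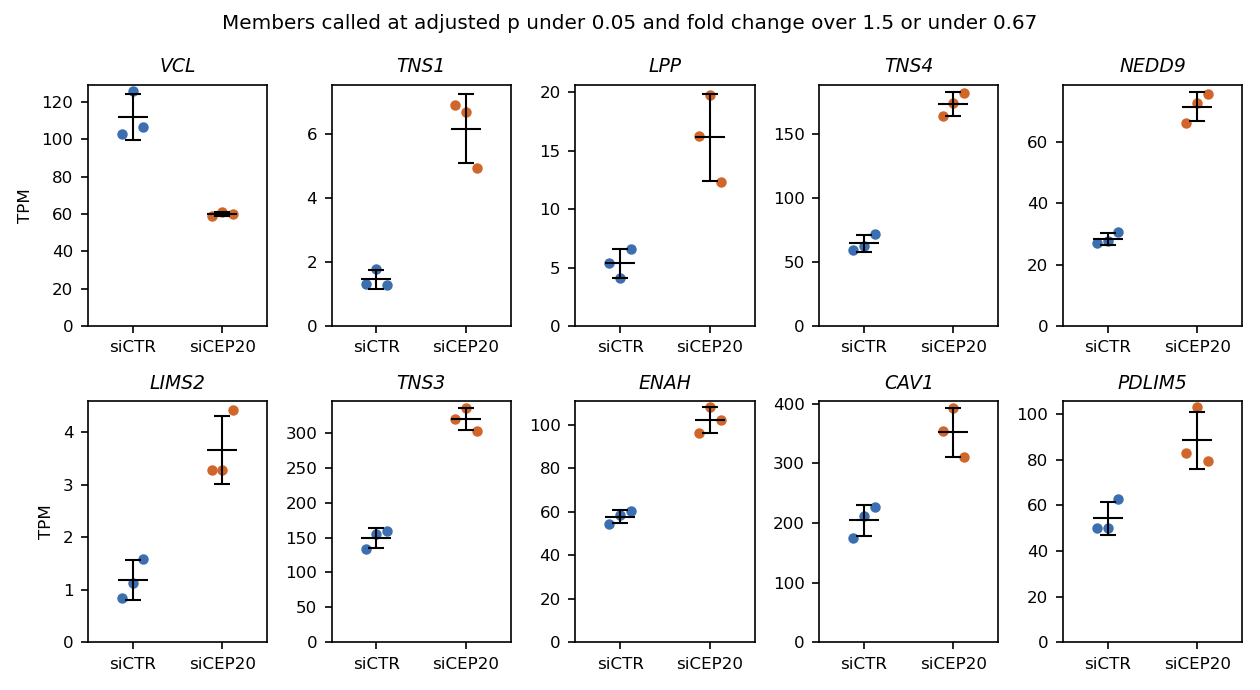
TPM of the 10 called genes in each of the 3 siCTR and 3 siCEP20 samples (points), with the mean and SD of each group (bars), each panel on its own axis from 0. VCL is lower in all siCEP20 samples, and the other 9 genes are higher, with no overlap between groups in any panel.

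Promoter sequence is shown for the 3 called genes with a single start site in the RefSeq promoter table (GRCh38.p14), 1 that fell and 2 that rose, as 250 bases before to 50 bases after that start. Capitals mark the GC box GGGCGG, which Sp1-type factors bind, and the TEAD motif GGAATG, each on either strand. The VCL promoter lies at chr10:73997866-73998165 on the + strand, that of PDLIM5 at chr4:94451692-94451991 on the + strand and that of ENAH at chr1:225653074-225653373 on the - strand.
VCL: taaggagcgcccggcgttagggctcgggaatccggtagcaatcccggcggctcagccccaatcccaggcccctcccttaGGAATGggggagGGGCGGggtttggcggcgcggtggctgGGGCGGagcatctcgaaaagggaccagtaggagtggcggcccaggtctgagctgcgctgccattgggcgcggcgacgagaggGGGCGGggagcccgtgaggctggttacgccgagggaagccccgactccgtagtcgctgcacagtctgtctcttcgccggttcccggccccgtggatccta
PDLIM5: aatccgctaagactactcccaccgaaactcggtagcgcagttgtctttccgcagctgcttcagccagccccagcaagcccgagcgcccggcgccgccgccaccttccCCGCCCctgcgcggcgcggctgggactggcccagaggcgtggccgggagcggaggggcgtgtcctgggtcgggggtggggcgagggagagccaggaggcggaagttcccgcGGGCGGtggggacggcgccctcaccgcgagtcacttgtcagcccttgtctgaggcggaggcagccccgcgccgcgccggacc
ENAH: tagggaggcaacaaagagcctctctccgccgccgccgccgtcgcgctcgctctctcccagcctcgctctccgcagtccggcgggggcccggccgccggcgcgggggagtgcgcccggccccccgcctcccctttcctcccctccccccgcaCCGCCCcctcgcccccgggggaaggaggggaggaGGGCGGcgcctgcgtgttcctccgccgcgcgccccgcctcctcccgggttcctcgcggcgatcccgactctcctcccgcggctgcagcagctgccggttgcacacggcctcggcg

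The VCL window holds 3 GC boxes and 1 TEAD motif, and the PDLIM5 and ENAH windows hold 2 GC boxes each and no TEAD motif. None of the 3 windows holds the AP-1 site TGANTCA or the CArG box, the sequence bound by serum response factor. All 4 motifs were searched on both strands. Windows were found for 44 of the 53 genes (93 windows in all, several for genes with more than 1 start). Of all 35116 windows in the table, 45% hold a GC box, 14% a TEAD motif, 7.71% an AP-1 site and 1.29% a CArG box. Of the 93 windows of these genes, 57.0%, 12.9%, 8.60% and 9.68% do. Counted by gene, 84.1% of the 44 have a GC box in some window, 22.7% a TEAD motif and 13.6% an AP-1 site. Over the 27305 genes with a window the shares were 48.3%, 16.7% and 9.37%. The 44 genes had 93 windows and the 27305 genes 35116, so a gene of the list had more windows that could hold a motif. A CArG box is in some window of 7 of the 44 (15.9%), against 1.60% of 27305 genes. These 8 sites are shown because the CArG box was the motif whose share in these genes was the largest multiple of that in all windows, a choice made after the counts were seen, with the box in capitals and up to 10 bases on each side.
ACTN1, chr14:68977718-68977747, - strand: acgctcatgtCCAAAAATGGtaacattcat
FHL2, chr2:105399091-105399120, - strand: gcgtgcatctCCTTATATGGtcaaatgaca
FHL2, chr2:105438595-105438624, - strand: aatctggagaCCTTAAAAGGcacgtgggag
FLNA, chrX:154374709-154374738, - strand: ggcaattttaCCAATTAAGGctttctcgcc
ITGB6, chr2:160200313-160200342, - strand: cacctgccttCCTTATAAGGagaacaagga
LPP, chr3:188212519-188212548, + strand: gcctgcttctCCATATTTGGaaatgtttac
TES, chr7:116222703-116222730, + strand: acacaagaCCAAATTAGGaatggttgcc
TGFB1I1, chr16:31473144-31473173, + strand: tggaggggagCCAAATTTGGcttgggtgaa

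Fold changes of the 7 genes with a box were not alike. Among them LPP was called higher (1.43), ACTN1 (0.49), TES (0.42), FHL2 (0.27) and FLNA (0.20) were higher at the adjusted p only, TGFB1I1 (0.24, adjusted p = 0.054) did not pass, and ITGB6 was too low to be tested. VCL, ZYX and the tensins have no CArG box in the windows found, or, for TNS4, no window. A match of letters is a description of the window and shows no binding.

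Among the alpha subunits, ITGA3 and ITGA2 were slightly lower in siCEP20, and ITGA5 and ITGA6 were higher. Of the 7 subunits, 5 were tested. At an adjusted p under 0.05, 2 rose and 2 fell, against 30.2% and 13.2% of all tested genes. None was called, and the median log2 fold change was 0.09. Under median-of-ratios scaling 1 was higher and 2 lower (20.1% and 21.6% of all tested genes), and with length and GC correction 0 and 2 (20.3% and 20.9%). ITGA3, whose dimer with ITGB1 binds laminins, was the most abundant, at 597, 649 and 650.2 TPM in siCTR and 524, 577 and 529 TPM in siCEP20. Every siCEP20 value lay below every siCTR value, and the log2 fold change was -0.22 ± 0.06, adjusted p = 0.0176. ITGA2, the collagen-binding partner of ITGB1, was 53.6, 67.5 and 75.7 TPM in siCTR and 50.01, 51.0 and 49.5 TPM in siCEP20. The difference was -0.37 ± 0.11, adjusted p = 0.0327, with the spread mostly in siCTR. Leaving out 1 library raised the adjusted p of ITGA3 above 0.05 in 4 of 6 fits (highest 0.0611) and that of ITGA2 in 5 of 6 (highest 0.0877), both of them without siCTR replicate 2 or 3 or siCEP20 replicate 1 or 3, and ITGA2 also without siCEP20 replicate 2, whereas both stayed lower under median-of-ratios scaling (-0.37 and -0.51).

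ITGA5, the classical fibronectin receptor subunit, was 93.9, 98.0 and 101 TPM in siCTR and 112, 116 and 119 TPM in siCEP20, an increase of 0.24 ± 0.06, adjusted p = 0.00929. ITGA6, which pairs with ITGB4 in hemidesmosomes and with ITGB1, was 29.0, 32.9 and 35.2 TPM in siCTR and 43.5, 45.6 and 39.4 TPM in siCEP20, an increase of 0.40 ± 0.09, adjusted p = 0.00933. PDK1-AS1 overlaps the exons of ITGA6 on the opposite strand. Both had siCEP20 samples wholly above siCTR, and both were smaller after median-of-ratios scaling, at 0.09 and 0.25. ITGAV, the subunit of several receptors for the RGD motif, was 93.1 to 113 TPM in siCTR and 103 to 115 TPM in siCEP20, its groups overlapped, its interval was -0.10 to 0.28, and its sign turned with median-of-ratios scaling (-0.06) and with length and GC correction (-0.15). ITGA11, a collagen receptor subunit mostly of fibroblasts, stayed under the minimum but did not overlap between groups, at 0.711, 0.515 and 0.568 TPM in siCTR and 1.23, 1.47 and 1.27 TPM in siCEP20. ITGA1 was 0.878 to 1.14 TPM in siCTR and 0.618 to 1.06 TPM in siCEP20. Exon sequence of ITGA1 overlaps PELO on the same strand, so reads from that overlap may belong to either gene.

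ITGB1, the common beta subunit of most matrix receptors and the most abundant of all 53 transcripts, was higher in siCEP20. It was measured at 1151, 1395 and 1434 TPM in siCTR and 1881, 1956 and 1836 TPM in siCEP20 (gene at chr10:32887273-33005792, - strand, hg38). The lowest siCEP20 sample stood above the highest siCTR sample, and the first siCTR sample was the lowest of all. The increase was 0.52 ± 0.08, adjusted p = 0.00163, a ratio of mean TPM of 1.43, which on the log2(TPM + 1) scale fell short of the fold threshold. Quantile normalization (0.71) took it past. It was smaller under median-of-ratios scaling (0.37, adjusted p = 0.00297) and with length and GC correction (0.29, adjusted p = 0.00367). An antisense transcript, ITGB1-DT, overlaps its exons, and whether strand was used in quantification is not given in the sources used here.

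The other beta subunits were mixed. Of the 6, 4 were tested. In limma 2 were higher and none lower at an adjusted p under 0.05, against 30.2% and 13.2% of all tested genes, and none was called. At an unadjusted p under 0.05, 2 were higher and 1 lower. Under median-of-ratios scaling 1 was higher and 2 were lower (20.1% and 21.6% of all tested genes). With length and GC correction also 1 was higher and 2 were lower (20.3% and 20.9%). ITGB4, the hemidesmosome subunit, was 57.0, 57.9 and 59.8 TPM in siCTR and 67.2, 70.8 and 85.0 TPM in siCEP20 and rose by 0.34 ± 0.09, adjusted p = 0.0166, with the third siCEP20 sample the highest, but its adjusted p was 0.0502 without siCTR replicate 1, and it did not pass under median-of-ratios scaling (0.19, adjusted p = 0.117), with length and GC correction (0.12, adjusted p = 0.306) or with no filter on low TPM. ITGB5, which pairs with ITGAV to bind vitronectin, was 205 to 210.2 TPM in siCTR and 190.4 to 203 TPM in siCEP20 (log2 fold change -0.07, adjusted p = 0.292, interval -0.18 to 0.04), and passed as lower under median-of-ratios scaling (-0.22, adjusted p = 0.015) and with length and GC correction (-0.22, adjusted p = 0.00724). ITGB3, the beta subunit of a vitronectin receptor, was 5.69, 6.56 and 6.95 TPM in siCTR and 4.37, 4.92 and 5.58 TPM in siCEP20. It was lower without overlap but not past the threshold (-0.31, adjusted p = 0.0724). It passed under median-of-ratios scaling (-0.44, adjusted p = 0.0133), quantile normalization (-0.49, adjusted p = 0.00837) and length and GC correction (-0.51, adjusted p = 0.0072). ITGB6 and ITGB8, whose dimers with ITGAV activate latent TGF-beta, lay under the minimum of 1 TPM. ITGB6 was 0.279, 0.233 and 0.292 TPM in siCTR and 1.16, 0.783 and 0.875 TPM in siCEP20, and ITGB8 was 0.470, 0.349 and 0.210 TPM in siCTR and 0.726, 1.31 and 0.920 TPM in siCEP20. Both were wholly higher in siCEP20, and when every gene with a value above 0 was tested, ITGB6 was called higher (log2 fold change 0.61, adjusted p = 0.0112) and ITGB8 passed the adjusted p alone (0.56, adjusted p = 0.0494).

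Within each family, the make-up of the subunit transcripts was compared sample by sample, which a common scaling factor cannot change. ITGB1 took 80.8%, 83.8% and 84.0% in siCTR and 87.7%, 87.6% and 86.1% in siCEP20 of the summed TPM of the 6 beta subunits. ITGB5 took 14.8%, 12.3% and 12.0% in siCTR and 8.88%, 8.88% and 9.52% in siCEP20. The share of ITGB1 was higher and that of ITGB5 lower in every siCEP20 sample. Among the 7 alpha subunits, ITGA3 took 67.8% ± 1.11 (SD, n = 3) in siCTR and 62.8% ± 0.760 (n = 3) in siCEP20, ITGA5 10.5% ± 0.294 (SD, n = 3) in siCTR and 13.4% ± 0.705 (n = 3) in siCEP20, and ITGA6 3.46% ± 0.135 (SD, n = 3) in siCTR and 4.95% ± 0.247 (n = 3) in siCEP20. Of the 13 shares, 11 did not overlap between groups, the exceptions being ITGA1 and ITGB4, and each of the 11 had p = 0.1 in an exact two-sided permutation test, the smallest that 3 against 3 samples can give (0.118 after Benjamini-Hochberg adjustment over 13 shares). Of all tested genes taken singly, 38.4% were wholly higher and 17.0% wholly lower in siCEP20. Shares of a family have a fixed sum, so a change of an abundant subunit moves the rest and the 11 are not independent results. The share of ITGB5 fell while its own TPM without rescaling did not pass (mean 207 TPM in siCTR and 197 TPM in siCEP20, limma adjusted p = 0.292). The summed beta transcripts were 1599 ± 152 TPM in siCTR and 2169 ± 54.3 TPM in siCEP20, without overlap, whereas the summed alpha transcripts were 933 ± 56.8 and 865 ± 36.3 TPM and overlapped. The ratio of summed beta to summed alpha TPM was 1.64, 1.75 and 1.75 in siCTR and 2.54, 2.46 and 2.53 in siCEP20 (exact permutation p = 0.1). ITGB1 alone had a mean of 1326 TPM in siCTR and 1891 TPM in siCEP20, so the rise of the beta sum was mostly that of ITGB1. The shares and sums leave out 13 other integrin subunits. The most abundant of these was the alpha subunit ITGAE, at a mean of 69.5 TPM in siCTR and 34.2 TPM in siCEP20.

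**Figure D3:**
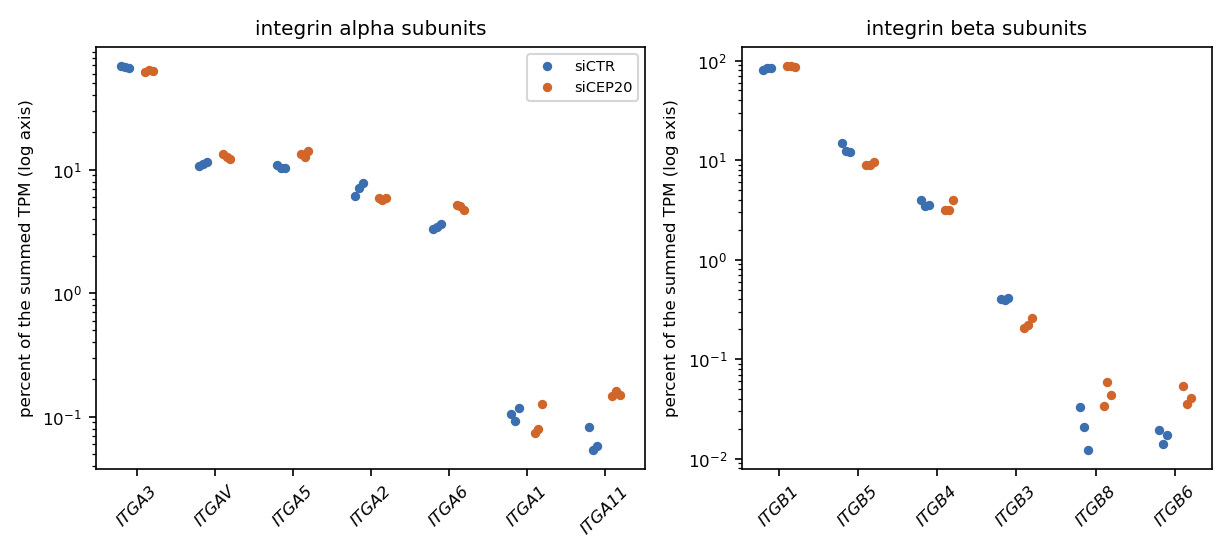
Percent of the summed TPM of the 7 alpha subunits (left) and of the 6 beta subunits (right) that each subunit takes in each sample, on a log axis, with siCTR in blue and siCEP20 in orange. ITGA3 and ITGB1 make up most of their family in all 6 samples, with ITGA3 lower and ITGB1 higher in siCEP20.

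Ratios between partner chains were taken in the same way. The log2 ratio of ITGA3 to ITGB1 was -0.95, -1.10 and -1.14 in siCTR and -1.84, -1.76 and -1.79 in siCEP20, and that of ITGA2 to ITGB1 was -4.42, -4.37 and -4.24 in siCTR and -5.23, -5.26 and -5.21 in siCEP20. Each siCEP20 sample thus held fewer ITGA3 and ITGA2 transcripts per ITGB1 transcript than any siCTR sample, with mean differences of -0.74 and -0.89 on the log2 scale. ITGA5 to ITGB1 differed by -0.27, also without overlap, with ITGA5 itself higher in siCEP20 but by less than ITGB1. ITGB4 to ITGA6, the chains of the hemidesmosome integrin, overlapped between groups, with a difference of -0.06. ITGB6 to ITGAV was higher by 1.70 without overlap, from an ITGB6 level under 0.3 TPM in siCTR.

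Without rescaling, no talin or kindlin, the proteins that switch integrins on, reached the fold threshold. All 4 were tested, and 1 rose and 1 fell at an adjusted p under 0.05, against 30.2% and 13.2% of all tested genes. None was called without rescaling, and the median was 0.10. Under median-of-ratios scaling 0 were higher and 1 lower (20.1% and 21.6% of all tested genes), and with length and GC correction 0 and 2 (20.3% and 20.9%). TLN1, the main talin, was 111, 125 and 119 TPM in siCTR and 117, 128 and 116 TPM in siCEP20. The groups overlapped, and the log2 fold change was 0.03 (adjusted p = 0.775) with an interval of -0.13 to 0.18. Its sign turned under median-of-ratios scaling (-0.12), quantile normalization (-0.02) and length and GC correction (-0.22). With that correction TLN1 passed as lower (adjusted p = 0.00775). TLN2, the less abundant talin, was 9.54, 9.63 and 7.86 TPM in siCTR and 7.24, 7.34 and 6.38 TPM in siCEP20, lower in every siCEP20 sample (-0.32, adjusted p = 0.0468). FERMT2, the broadly expressed kindlin, was 31.2, 33.3 and 39.7 TPM in siCTR and 46.3, 42.7 and 40.8 TPM in siCEP20, higher in every siCEP20 sample (0.31, adjusted p = 0.0325). In fits that left out 1 library, TLN2 lost the adjusted p in 5 of 6 (highest 0.136, all but that without siCTR replicate 3). TLN2 passed as lower under median-of-ratios scaling (-0.46, adjusted p = 0.0165), quantile normalization (-0.49, adjusted p = 0.0134) and length and GC correction (-0.58, adjusted p = 0.00661). The last of these also took it past the fold threshold. FERMT2 lost the adjusted p in 4 of 6 fits without 1 library (highest 0.104, those without siCTR replicates 1 and 2 and siCEP20 replicates 1 and 2). In all, FERMT2 missed the threshold in 11 of 15 alternatives, among them median-of-ratios scaling (0.17, adjusted p = 0.163), quantile normalization (0.19, adjusted p = 0.117), length and GC correction (0.09, adjusted p = 0.429), the fit with no trend and that with a replicate block. FERMT1, the epithelial kindlin, was 10.0 to 11.4 TPM in siCTR and 11.2 to 13.3 TPM in siCEP20 with overlapping groups (0.17, adjusted p = 0.199).

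In the complex of ILK, PINCH and parvin, which couples beta tails to actin, ILK rose moderately and the minor PINCH gene LIMS2 rose most. All 5 genes were tested, and 3 were higher at the adjusted p, against 30.2% of all tested genes. Of the 3, 1 was called, against 11.2% of all tested genes, and the median was 0.33. Under median-of-ratios scaling 2 were higher and 1 lower (20.1% and 21.6% of all tested genes), as with length and GC correction (20.3% and 20.9%). ILK, the pseudokinase at the centre of the complex, was 119.7, 125 and 123 TPM in siCTR and 152, 157 and 155 TPM in siCEP20. Replicates were close, the groups stood apart, and the increase was 0.33 ± 0.05, adjusted p = 0.00135, although TAF10 overlaps its exons on the other strand. LIMS2 (chr2:127638381-127681786, - strand), which codes for PINCH2, was 0.835, 1.14 and 1.59 TPM in siCTR and 3.28, 3.28 and 4.41 TPM in siCEP20, wholly above siCTR but low in every sample. Its log2 fold change was 1.10 ± 0.18, adjusted p = 0.00215. LIMS1, which codes for PINCH1 and has near-identical copies in the genome between which reads can be split, was 37.8 to 45.6 TPM in siCTR and 44.9 to 57.7 TPM in siCEP20 and did not pass (0.22, adjusted p = 0.146). PARVB rose by 0.34 (adjusted p = 0.0158), an adjusted p that reached up to 0.0557 when siCEP20 replicate 2 or 3 was left out. It did not pass under median-of-ratios scaling (0.19, adjusted p = 0.0784), quantile normalization (0.19, adjusted p = 0.088) or length and GC correction (0.15, adjusted p = 0.138). Its paralog PARVA, at 12.2 to 14.1 TPM in siCTR and 12.5 to 12.6 TPM in siCEP20, had overlapping groups (-0.09, adjusted p = 0.429). PARVA passed as lower under median-of-ratios scaling (-0.23, adjusted p = 0.0325), quantile normalization (-0.25, adjusted p = 0.0222) and length and GC correction (-0.34, adjusted p = 0.00514).

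Among the proteins that tie integrins to actin, vinculin fell while 3 tensins rose. All 8 genes were tested, and 6 rose and 1 fell at an adjusted p under 0.05, against 30.2% and 13.2% of all tested genes. Called higher were 3 and lower 1, against 11.2% and 4.61% of all tested genes, and the median was 0.53. VCL (chr10:73995193-74121363, + strand), which codes for vinculin, the protein that binds stretched talin and recruits actin, was 103, 126 and 107 TPM in siCTR and 58.9, 61.1 and 60.2 TPM in siCEP20. The 3 siCEP20 values lay close together, at 53.6% of the siCTR mean and below the lowest siCTR sample. The log2 fold change was -0.88 ± 0.08, adjusted p = 0.000148, and from -1.13 to -0.80 over the 15 other ways of fitting. VCL was called lower in all 15, though not where a 2-fold change was required. AP3M1 overlaps its exons on the opposite strand.

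Tensins bind beta tails and actin at fibrillar adhesions, and TNS4, which lacks the actin-binding part, is found in epithelial and carcinoma cells. TNS4 (chr17:40475828-40501623, - strand) was 59.1, 62.7 and 71.5 TPM in siCTR and 163, 174 and 182 TPM in siCEP20, a 2.69-fold rise in mean TPM (log2 fold change 1.41 ± 0.08, adjusted p = 3.12e-05). TNS3 (chr7:47275154-47582558, - strand), the most abundant tensin here, was 133, 155 and 159.9 TPM in siCTR and 319.9, 335 and 303 TPM in siCEP20. The lowest siCEP20 sample stood far above the highest siCTR sample, and the change was 1.09 ± 0.08, adjusted p = 5.51e-05. TNS1 (chr2:217799588-218033982, - strand) was low, at 1.32, 1.79 and 1.27 TPM in siCTR and 6.90, 6.68 and 4.94 TPM in siCEP20, and rose by 1.54 ± 0.16, adjusted p = 0.000257. The 3 tensins were called higher in every fit in which they were tested, TNS1 being under the stricter minimum of 5 TPM.

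The alpha-actinins, which crosslink actin, rose together and below the fold threshold. ACTN4 (chr19:38647649-38731589, + strand), the most abundant actin linker, was 649, 678 and 678 TPM in siCTR and 966, 999 and 991 TPM in siCEP20. The samples within each group were close and the groups stood apart, with a log2 fold change of 0.56 ± 0.04, adjusted p = 7.78e-05. CAPN12 overlaps it on the opposite strand. ACTN1 was 322, 342 and 345 TPM in siCTR and 457, 462 and 502 TPM in siCEP20, with a change of 0.49 ± 0.06, adjusted p = 0.000372. FLNA, the main filamin and an actin crosslinker that binds beta tails, was 651 to 659 TPM in siCTR and 730.3 to 775 TPM in siCEP20, up by 0.20 (adjusted p = 0.00735), a difference close to the median of all genes whose sign turned after length and GC correction (-0.05), and an unnamed gene overlaps its exons on the opposite strand. FLNC, the muscle filamin, was near 1 TPM and did not pass (0.28, adjusted p = 0.207).

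LIM-domain proteins and the Ena/VASP family, which gather on stress fibres and at the actin end of adhesions, were the group with the most genes higher. Of the 12, 10 were higher in limma at an adjusted p under 0.05 and none lower, against 30.2% and 13.2% of all tested genes (11 and 0 at an unadjusted p under 0.05). Called higher were 3, against 11.2% of all tested genes, and the median was 0.40. For 11 of the 12, all siCEP20 samples were above all siCTR samples, against 38.4% of all tested genes. Under median-of-ratios scaling 8 were higher and 1 lower, against 20.1% and 21.6% of all tested genes. PDLIM1, a stress fibre adaptor and the most abundant of them, was 251, 269 and 278 TPM in siCTR and 331, 345 and 346 TPM in siCEP20 (log2 fold change 0.36 ± 0.05, adjusted p = 0.00141).

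LPP (chr3:188153284-188890671, + strand), a zyxin-family protein that binds alpha-actinin and VASP, was 5.34, 4.11 and 6.62 TPM in siCTR and 16.3, 19.8 and 12.3 TPM in siCEP20. Values ranged widely within siCEP20, but the lowest was still above the highest of siCTR, and the log2 fold change was 1.43 ± 0.19, adjusted p = 0.000802. Its exons overlap LPP-AS2 on the opposite strand. ENAH (chr1:225486765-225653142, - strand), which codes for MENA, an Ena/VASP protein that speeds actin filament growth, was 54.5, 58.7 and 60.2 TPM in siCTR and 96.4, 108 and 102 TPM in siCEP20. All siCEP20 samples exceeded all siCTR samples, with a change of 0.81 ± 0.07, adjusted p = 0.000102, which fell short of the 1.5-fold threshold after length and GC correction (0.51). PDLIM5 (chr4:94451857-94668227, + strand), an alpha-actinin-binding scaffold for kinases, was 50.1, 50.2 and 62.7 TPM in siCTR and 82.9, 103 and 79.6 TPM in siCEP20, with a change of 0.69 ± 0.12, adjusted p = 0.00256. Its call rested on the second siCEP20 sample, since without it the log2 fold change was 0.58 and short of the fold threshold, as it was under median-of-ratios scaling (0.54) and with length and GC correction (0.46).

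A further 7 genes of the group rose below the fold threshold. ZYX, which codes for zyxin, the mechanosensor of stress fibres, was 174, 209 and 196 TPM in siCTR and 261, 272 and 324 TPM in siCEP20 (0.56 ± 0.10, adjusted p = 0.00233), and was called higher in the fits without siCTR replicate 2, siCEP20 replicate 1 or siCEP20 replicate 2. EVL, the third Ena/VASP protein, rose by 0.49, TES by 0.42, PDLIM7 by 0.37, SORBS3 (vinexin, a vinculin-binding adaptor) by 0.37, PDLIM1 by 0.36 and FHL2 by 0.27, with adjusted p between 0.00128 and 0.0131. TGFB1I1, which codes for the paxillin-like HIC-5, was 46.9 to 52.9 TPM in siCTR and 53.3 to 64.7 TPM in siCEP20 and narrowly missed (0.24, adjusted p = 0.054). VASP was 139 to 147 TPM in siCTR and 138 to 147 TPM in siCEP20, with overlapping groups and an interval of -0.16 to 0.09.

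Of the signalling proteins, the scaffold NEDD9 and the membrane protein CAV1 rose, and the kinases PTK2 and SRC differed by about as much as the median of all genes. All 11 were tested, and 7 were higher and none lower in limma at an adjusted p under 0.05, against 30.2% and 13.2% of all tested genes (10 and 0 at an unadjusted p under 0.05). Called higher were 2, against 11.2% of all tested genes, and the median was 0.27. With median-of-ratios scaling only 2 of the 11, NEDD9 and CAV1, passed, both higher, against 20.1% of all tested genes. NEDD9 (chr6:11183298-11382348, - strand), a CAS-family scaffold phosphorylated by focal adhesion kinase and SRC, was 27.0, 27.6 and 30.7 TPM in siCTR and 66.2, 72.6 and 75.5 TPM in siCEP20. The groups were far apart for the spread within them, and the change was 1.30 ± 0.08, adjusted p = 3.64e-05. CAV1 (chr7:116524994-116561179, + strand), which codes for caveolin-1 and was the most abundant of these 11, was 175, 211 and 227 TPM in siCTR and 354, 393 and 310.5 TPM in siCEP20, the first siCTR sample being lowest. Its change was 0.78 ± 0.11, adjusted p = 0.00102.

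PTK2, which codes for focal adhesion kinase, was 54.7, 62.5 and 61.0 TPM in siCTR and 67.8, 76.9 and 57.7 TPM in siCEP20. The groups overlapped, and the log2 fold change was 0.17 (adjusted p = 0.221) with an interval of -0.07 to 0.42, turning to -0.02 after length and GC correction. SRC was 143, 148 and 136 TPM in siCTR and 157, 167 and 165 TPM in siCEP20, a change of 0.19 (adjusted p = 0.0238) that was lost without siCTR replicate 3 or siCEP20 replicate 2 or 3 (highest adjusted p = 0.0783). PXN, which codes for the adaptor paxillin and overlaps the antisense PXN-AS1 and an unnamed gene, was 123 to 149 TPM in siCTR and 143 to 185 TPM in siCEP20 and did not pass (0.29, adjusted p = 0.0604), nor did BCAR1, the CAS-family paralog of NEDD9 (0.19, adjusted p = 0.0577), or the kinase PAK1 (0.18, adjusted p = 0.0749). The GIT and PIX proteins, which carry PAK kinases to adhesions, passed, with ARHGEF7 at 0.40 (adjusted p = 0.00775), GIT2 at 0.32 (adjusted p = 0.0188), lost without siCEP20 replicate 2 (adjusted p = 0.0676), and GIT1 at 0.26 (adjusted p = 0.00536), and so did PAK2 at 0.27 (adjusted p = 0.0263), which was lost in all fits that left out a library but that without siCTR replicate 3 (highest adjusted p = 0.0836). TCHP overlaps GIT2 on the opposite strand.

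Ratios between paralogs were compared within each sample in the same way. The log2 ratio of LIMS2 to LIMS1 was -5.50, -5.33 and -4.76 in siCTR and -3.81, -3.77 and -3.71 in siCEP20, a difference of 1.43. The log2 ratio of NEDD9 to BCAR1 was -1.04, -1.06 and -0.89 in siCTR and 0.16, 0.07 and 0.19 in siCEP20, so that NEDD9 was the less abundant of the pair in siCTR and slightly the more abundant in siCEP20. The log2 ratio of ENAH to VASP was -1.44, -1.25 and -1.28 in siCTR and -0.52, -0.44 and -0.43 in siCEP20. These 3 ratios were higher in every siCEP20 sample. EVL to VASP, PARVB to PARVA and FLNC to FLNA were also higher without overlap (by 0.56, 0.46 and 0.32), and TLN2 to TLN1 was lower (difference -0.39). ACTN1 to ACTN4, FERMT1 to FERMT2, GIT2 to GIT1 and PAK1 to PAK2 overlapped between groups. In all, 11 of 16 ratios did not overlap, 7 of 11 between paralogs and 4 of 5 between integrin partners, each with an exact two-sided permutation p = 0.1, the smallest possible, and 0.145 after adjustment over 16 ratios. Of all tested genes taken singly, 38.4% were wholly higher and 17.0% wholly lower in siCEP20. No such share was computed over ratios of other genes. The ratios of ITGA2, ITGA3 and ITGA5 share the denominator ITGB1, and those of ENAH and EVL share VASP, so the ratios are not independent results.

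**Figure D4:**
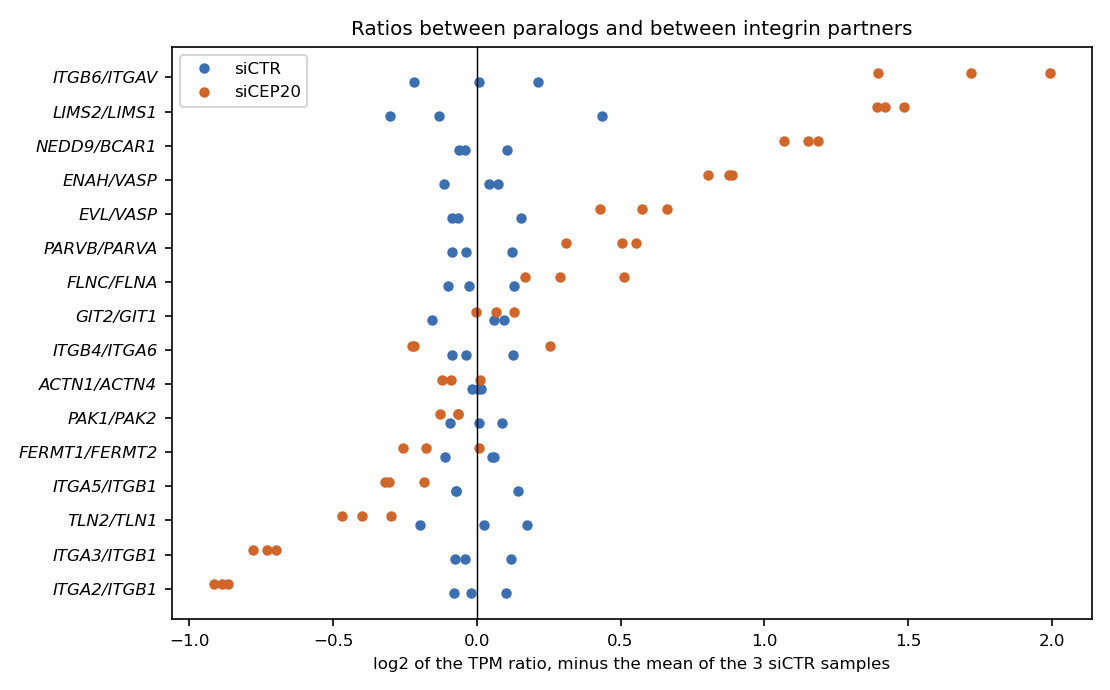
Log2 ratio of TPM between paralogs and between integrin partners in each sample, minus the mean of the 3 siCTR samples, with siCTR in blue and siCEP20 in orange. ITGB6/ITGAV, LIMS2/LIMS1 and NEDD9/BCAR1 lie above 1 in all siCEP20 samples, and ITGA2/ITGB1 and ITGA3/ITGB1 lie below -0.5.

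Genes that act with integrins were described from 4 further lists. Of 30 integrin ligands, 23 were tested. At the adjusted p 14 (60.9%) were higher and 1 (4.35%) lower, against 30.2% and 13.2% of all tested genes. Called higher were 5 (21.7%) and lower none, against 11.2% and 4.61%, and the median was 0.37. Under median-of-ratios scaling 9 were higher and 4 lower (20.1% and 21.6% of all tested genes), and with length and GC correction 8 and 7 (20.3% and 20.9%). CCN1, a secreted matricellular ligand, was 85.6, 78.2 and 92.6 TPM in siCTR and 224, 237 and 246 TPM in siCEP20 (1.46, adjusted p = 2.18e-05). COL1A1, a collagen chain, was 5.39, 5.90 and 5.27 TPM against 19.5, 19.6 and 17.5 TPM (1.61, adjusted p = 3.12e-05), while COL1A2, the chain it assembles with, was listed at 0 in all 6 samples and the fibroblast markers DCN, PDGFRB and COL3A1 were at or under 0.256 TPM. LTBP1, which holds latent TGF-beta, rose by 0.72 (adjusted p = 0.000616) and the collagen chain COL5A1 by 0.69 (adjusted p = 0.000888), both short of the fold threshold under median-of-ratios scaling (0.57 and 0.55) and called in 11 of 15 alternatives.

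Among membrane partners of integrins, more were lower than higher. Of 13, all tested, 6 (46.2%) were lower and 5 (38.5%) higher at the adjusted p, against 13.2% and 30.2% of all tested genes. Called lower were 3 (23.1%) and higher 1 (7.69%), against 4.61% and 11.2%, and the median was -0.14. Under median-of-ratios scaling 2 were higher and 8 lower (20.1% and 21.6% of all tested genes), and with length and GC correction 4 and 8 (20.3% and 20.9%). The tetraspanin CD82 was 8.27, 8.78 and 7.99 TPM in siCTR and 2.25, 2.77 and 2.93 TPM in siCEP20, a mean of 31.8% of siCTR (-1.36, adjusted p = 0.000119). SLC3A2, the heavy chain of CD98, which binds beta tails, was 1161, 1098 and 1083 TPM against 701, 754 and 748 TPM (-0.60, adjusted p = 0.000103), a difference of -0.48 and short of the fold threshold with quantile normalization. The hyaluronan receptor CD44 rose by 0.59 (adjusted p = 7.33e-05), just past the fold threshold, and was called in 8 of 15 alternatives, not under median-of-ratios scaling (0.43) or with length and GC correction (0.38). CD47, the integrin-associated protein, fell by 0.62 on the log2 scale (adjusted p = 0.0258) and was called in 10 of 15 alternatives, over which its log2 fold change was -0.86 to -0.44. The tetraspanins CD151, CD9 and CD63 were lower at the adjusted p (-0.22, -0.30 and -0.27), whereas CD81 (-0.11, adjusted p = 0.114) and TSPAN4 (-0.14, adjusted p = 0.113) did not pass. These 5 were singled out after their values were seen.

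Of 47 other adhesion adaptors and regulators, 44 were tested. At the adjusted p 21 (47.7%) were higher and 5 (11.4%) lower, against 30.2% and 13.2% of all tested genes. Called higher were 10 (22.7%) and lower none, against 11.2% and 4.61%, and the median was 0.24. Under median-of-ratios scaling 16 were higher and 8 lower (20.1% and 21.6% of all tested genes), and with length and GC correction 14 and 10 (20.3% and 20.9%). The stress fibre protein PALLD was 47.7, 52.7 and 55.6 TPM in siCTR and 104, 113 and 109 TPM in siCEP20 (1.05, adjusted p = 5.22e-05). SVIL, which codes for the actin and membrane linker supervillin, was 20.4, 23.6 and 22.5 TPM against 40.9, 44.2 and 40.5 TPM (0.89, adjusted p = 0.000123). The endocytic adaptor DAB2, which clears integrins from the surface, rose by 0.71 (adjusted p = 0.000273, but 0.57 and short of the fold threshold under median-of-ratios scaling) and the GTPase RAC1 by 1.06 (adjusted p = 0.00041). Of 13 other integrin subunits only 4 reached the minimum, with a median of 0.31. At the adjusted p 1 was higher and 1 lower, against 30.2% and 13.2% of all tested genes. The same counts held under median-of-ratios scaling (20.1% and 21.6%) and with length and GC correction (20.3% and 20.9%). ITGA2B was higher (0.58, adjusted p = 0.0134), just short of the fold threshold. ITGAE, the epithelium-binding subunit of lymphocytes, was called lower, against 4.61% of all tested genes. ITGAE was 75.7, 69.9 and 62.8 TPM in siCTR and 32.6, 35.4 and 34.5 TPM in siCEP20 (-0.999, adjusted p = 8.65e-05). Its exons overlap HASPIN on the opposite strand, and of the haematopoietic markers PTPRC and CD3E were at or under 0.0183 TPM in every sample, whereas CD14, a monocyte marker, was at 7.20 to 10.9 TPM.

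Since the longest annotated transcripts of these genes are longer than most, the fold changes were also corrected for transcript length and GC content. The trend of fold change with the length and GC content of the longest transcript was removed over all genes. The median of the 49 then was 0.11 instead of 0.31, against 0.00 for all tested genes. At the adjusted p, 18 were higher and 8 lower (20.3% and 20.9% of all tested genes). With the fold change required as well, 7 were called higher and 3 lower (6.26% and 6.16% of all tested genes). ITGA2 (-0.61) and TLN2 (-0.58) joined VCL (-1.13) among those called lower. LIMS2, LPP, NEDD9, TNS1, TNS3, TNS4 and CAV1 stayed called higher, between 0.67 and 1.29, as the plot of 4 scalings shows.

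**Figure D5:**
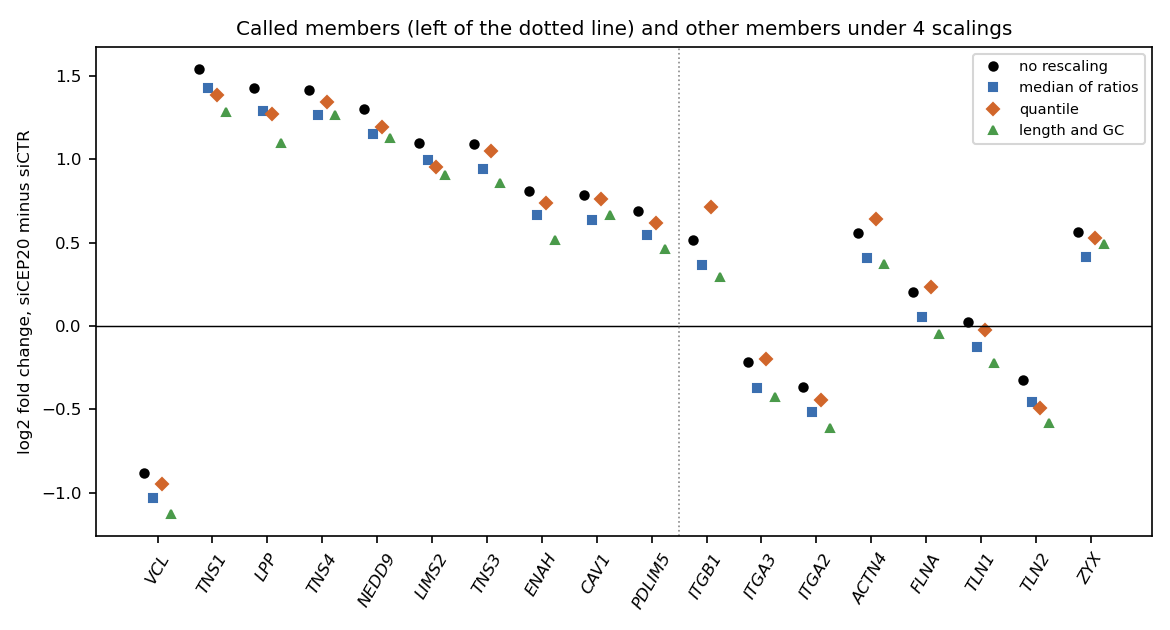
Log2 fold change (siCEP20 minus siCTR) of the 10 called genes and of 8 others without rescaling and under median-of-ratios scaling, quantile normalization and length and GC correction. The called genes keep their sign under all 4, and TLN1 and FLNA lie on both sides of 0.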

How the data were processed

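The authors trimmed reads with fastp 0.20.1, aligned them to hg38 with HISAT2 2.1.0 and quantified genes with StringTie 2.0 (methods and the submitters' processing notes). The deposited table gives the TPM of each Ensembl gene in 6 samples, matched by column name. The annotation release is not given in the sources used here, and neither is the use of strand. TPM holds no counts, so depth is unknown and precision rests on 3 samples per group. TPM are shares, so a rise of many transcripts lowers the rest.

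Genes were named with GENCODE release 44 (hg38). The 14778 genes whose mean reached 1 TPM were tested on log2(TPM + 1), which understates the change of low genes, with limma 3.58.1 (trended eBayes) in R 4.3.3, with Benjamini-Hochberg adjusted p-values over all of them. The study's count-based test could not be repeated on TPM. A call needed an adjusted p under 0.05 and a fold change beyond the study's limits of 1.5 and 0.67. The fit was tested on simulated data. Shares and ratios were compared with exact two-sided permutation tests (scipy 1.17.1). Errors are SE for log2 fold changes and SD (n = 3) for other values, and values follow replicates 1 to 3.

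Values in every sample were given for the called genes and the most abundant gene of each role. From the other lists the called genes with the smallest adjusted p were named, up to 4 each, and the ratios that differed most. The genes, lists and pairs were chosen with earlier results of these data known. Alternatives were another pseudocount, other filters, 2 scalings, eBayes without a trend, a replicate block, a correction for length and GC content (known for 99.7% of tested genes), a 2-fold threshold and leaving out each sample. Values of some genes of the lists are not reported here.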

Additional observations from a re-analysis of the deposited data

How the results depend on the processing

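Of 747 refits of a single gene's log2 fold change (CEP20 and the 49 tested genes, 15 alternatives where each could be fitted), 626 kept direction and side of the adjusted p threshold, 84 lost and 22 gained it, and 15 turned sign. ITGAV turned with median-of-ratios scaling (-0.0587) and with length and GC correction with or without the block (-0.1499), TLN1 with median-of-ratios scaling (-0.124), quantile normalization (-0.0225) and length and GC correction (-0.220), and from -0.0167 to 0.0645 over the fits without 1 library (below 0 without siCTR replicate 1 or siCEP20 replicate 2), and FERMT1 (-0.0650), FLNA (-0.0458) and PTK2 (-0.0170) with length and GC correction. Under median-of-ratios scaling, quantile normalization, length and GC correction, that correction with the block, and a 2-fold threshold, 891, 923, 925, 915 and 261 of all tested genes were called higher instead of 1659, and 1102, 1016, 911, 905 and 147 lower instead of 682. Of the integrin and focal adhesion genes, 3 were called lower with length and GC correction and 0 with the 2-fold threshold, against 6.16% and 0.995% of all tested genes. VCL has a log2 fold change of -0.88 under that threshold. At the adjusted p alone, 19 were higher and 8 lower under median-of-ratios scaling (20.1% and 21.6% of all tested genes). With length and GC correction 18 and 8 were (20.3% and 20.9%). With no filter on low TPM 1 was lower (5.45% of all tested genes), and without a trend 2 were (12.1%). Leaving out 1 library gave 9 to 10 called higher and 1 lower, against 9.32% to 12.9% and 4.16% to 4.79% of all tested genes. At the adjusted p 26 to 32 were higher and 1 to 3 lower, against 22.7% to 29.3% and 10.1% to 11.7%. In these fits their median log2 fold change was 0.27 to 0.34. The count lower at the adjusted p fell to 1 without siCTR replicate 2 or siCEP20 replicate 1 or 3, and to 2 without siCTR replicate 3 or siCEP20 replicate 2. Their median was 0.17 with median-of-ratios scaling, 0.19 with quantile normalization and 0.11 with length and GC correction. Relative to all tested genes it was 0.18, and 0.28 with no filter and 0.11 with length and GC correction. The cause was not tested. All 174 refits of shares and ratios without 1 library kept their direction except 4 of the overlapping ratios GIT2/GIT1 (-0.0128 to 0.114, below 0 without siCTR replicate 1) and ITGB4/ITGA6 (-0.222 to 0.0188, above 0 without siCTR replicate 1, siCEP20 replicate 1 or siCEP20 replicate 2).

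The labels give both groups the numbers 1 to 3, but no source says that a number marks a shared culture or day. Deviations from the group means correlated at 0.157, -0.0614 and -0.0623 between samples with the same number, and only the 2 samples numbered 1 correlated best with their own number. With a replicate block, 1654 (11.2%) of all tested genes were called higher and 694 (4.7%) lower, and 9 and 1 of the integrin and focal adhesion genes. At the adjusted p 31 of the latter were higher and 4 lower, against 28.9% and 12.6% of all tested genes, FERMT2 dropping out and TGFB1I1 coming in. With unknown depth, no limit on low values such as those of ITGB6 and ITGB8 could be set.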
